A study of Mus musculus with 16 samples.

Results

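The genes that make sterols and fatty acids were followed through 6 groups of sorted mouse bone marrow cells: 31 genes of the 18194 that could be named on the arrays, of which 23 belong to sterol synthesis and 8 to fatty acid synthesis. The set was listed by gene name, and the list was made with earlier results of these data known. It holds 16 sterol enzymes (6 of the mevalonate route and 10 that build and finish the sterol ring), 5 genes that sense sterols or drive the pathway, 2 sterol transport genes and the 8 fatty acid genes Acly, Acaca, Fasn, Elovl6, Scd1, Scd2, Fads1 and Fads2. Each gene was read from the probe set with the highest mean log2(intensity + 16) over all 16 arrays, and all 31 passed the filter on low intensities in every comparison.

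The cells came from C57Bl6 mice, all labelled female, and were sorted from bone marrow straight into RNA extraction, with 4000 to 7000 cells per Affymetrix array. Old hematopoietic stem cells (HSC) came from wild-type mice of 24 months (n = 3), and young HSC from wild-type mice of 9 to 12 weeks (n = 3). Mutator cells came from Polgtm1Lrsn-/- mice of 32 weeks (n = 3), whose mitochondrial DNA polymerase lacks proofreading, and mid-aged wild-type HSC from Polgtm1Lrsn+/+ mice of the same age (n = 3). The sample title of the mutator arrays does not name the cell type, but the series' design text calls them stem cells. Ly6D+ and Ly6D- common lymphoid progenitors (CLP) came from wild-type mice of 8 to 12 weeks (n = 2 each). Replicates were labelled biological, with no statement of how many mice each held. The Polg allele alters the polymerase in every cell of the mouse and is not a loss of the transcript, so the level of Polg does not check the label.

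Cholesterol is made from acetyl-CoA through mevalonate, isoprenoids, squalene and lanosterol, and fatty acids from the same acetyl-CoA through malonyl-CoA, after which elongases lengthen and desaturases put double bonds into them. Both routes are switched on by SREBP transcription factors, SREBP-2 (Srebf2) mainly for sterols and SREBP-1 (Srebf1) mainly for fatty acids. When sterols are plentiful the Insig proteins hold Scap and the SREBP precursors in the endoplasmic reticulum, and when sterols are scarce Scap carries the precursors to the Golgi, where proteases free the active factor, which often acts beside the CCAAT-binding factor NF-Y.

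Several arrays stood apart, and results that rest on them are given with that in view. Xist, expressed from the inactive X chromosome, was at 9.12 to 16.8 and the Y-linked Eif2s3y at 423 to 758 on mid-aged wild-type replicate 3 and on all 4 CLP arrays, against 3510 to 11000 for Xist and 6.85 to 12.7 for Eif2s3y on the other 11 arrays, so these 5 arrays went against their sex label. The log2 ratio of the 3' to the 5' actin probe set, a measure of RNA and labelling quality, was 4.74 to 5.25 on mutator and 4.24 to 5.26 on mid-aged wild-type arrays, and 2.20 to 2.27 on old and 2.39 to 2.61 on young arrays. The poly-A control LysX, added to the RNA before labelling, read 1410 to 6050 on the 6 arrays of 32-week mice and 1770 to 3520 on CLP arrays, and 181 to 508 on old and young arrays. The hybridisation control BioB was high on mutator replicate 1 (2730) and mid-aged wild-type replicate 1 (2440) and on the CLP arrays (2770 to 3940), and 373 to 774 on the other HSC arrays. Old and young HSC thus overlapped in LysX and BioB but not in the actin ratio, mutator and mid-aged wild-type HSC shared both BioB levels, and the groups set across these preparations cannot be told apart from the preparation. The summed intensity of 7 HSC markers was 12300 to 15300 in old, 8810 to 11000 in young, 7050 to 8180 in mutator and 5580 to 7640 in mid-aged wild-type HSC, and 391 to 925 in CLP, as the labels have it.

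The promoters of 4 genes are shown because the results return to these genes in each role: Hmgcs1 for the mevalonate route, Srebf2 and Insig1 for sterol control and Fasn for fatty acid synthesis. Each is the RefSeq window from 250 bases before to 50 bases after the annotated start on GRCm38.p6, written 5' to 3' on the gene's strand, and capitals mark every match on either strand to the sterol response element TCACNCCAC, its shorter core TCACNCC, the NF-Y box CCAAT or the E-box CACGTG.
Hmgcs1, chr13:119690101-119690400, plus strand: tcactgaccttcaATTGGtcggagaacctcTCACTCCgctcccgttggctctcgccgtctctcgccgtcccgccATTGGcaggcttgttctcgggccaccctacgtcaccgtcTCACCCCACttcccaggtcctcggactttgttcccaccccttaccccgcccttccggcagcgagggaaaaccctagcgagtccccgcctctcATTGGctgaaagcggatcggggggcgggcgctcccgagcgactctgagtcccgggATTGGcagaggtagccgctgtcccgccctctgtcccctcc
Srebf2, chr15:82147019-82147318, plus strand: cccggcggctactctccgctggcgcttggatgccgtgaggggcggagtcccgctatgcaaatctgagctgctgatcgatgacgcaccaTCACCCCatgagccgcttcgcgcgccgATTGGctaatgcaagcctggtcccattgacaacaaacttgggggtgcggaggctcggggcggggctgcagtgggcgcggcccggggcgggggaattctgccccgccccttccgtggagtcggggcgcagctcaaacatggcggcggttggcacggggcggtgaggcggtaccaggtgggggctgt
Insig1, chr5:28071162-28071461, plus strand: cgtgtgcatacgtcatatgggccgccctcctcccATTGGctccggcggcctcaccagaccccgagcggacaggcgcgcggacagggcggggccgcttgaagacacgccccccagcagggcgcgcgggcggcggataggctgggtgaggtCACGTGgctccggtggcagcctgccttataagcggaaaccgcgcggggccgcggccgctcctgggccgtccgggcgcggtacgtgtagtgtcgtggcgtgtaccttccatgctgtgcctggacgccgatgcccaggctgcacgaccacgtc
Fasn, chr11:120824498-120824797, minus strand: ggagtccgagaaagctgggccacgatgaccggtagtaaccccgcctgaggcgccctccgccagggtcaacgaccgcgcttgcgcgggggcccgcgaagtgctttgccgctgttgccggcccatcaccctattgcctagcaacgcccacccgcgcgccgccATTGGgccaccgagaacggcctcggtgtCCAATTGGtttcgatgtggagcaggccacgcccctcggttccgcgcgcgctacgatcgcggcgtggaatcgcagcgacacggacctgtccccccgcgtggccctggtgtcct
Hmgcs1 held 4 NF-Y boxes and 1 full sterol response element, which was the only full match among the 24 members with a promoter in the table. Fasn held 3 NF-Y boxes, while Srebf2 and Insig1 held 1 each, and Insig1 also held an E-box. The core TCACNCC matched 1 time in Srebf2 and 2 times in Hmgcs1, where 1 match lay within the full element.

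Over the 24 members with a promoter in the table, the NF-Y box was present in 19 (79.2%), against 41.1% of 27025 genes. The 13 sterol enzymes with a promoter all held it (100%), and of the 5 fatty acid genes with one, 2 did (40%). The full sterol response element was found in 4.17% of these members and 1.44% of all genes, the core TCACNCC, which the full element contains, in 12.5% of members and 17.6% of all genes, and the E-box in 25% of members and 8.09% of all genes. These are letter matches in a fixed window and not bound sites.

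Scd1 was the member that set old apart from young HSC. It encodes the stearoyl-CoA desaturase that makes oleate and palmitoleate, the main monounsaturated fatty acids. Its intensity was 465, 361 and 311 in old HSC, against 72.9, 68.2 and 86.1 in young HSC. All 3 old arrays lay above all 3 young arrays, and the groups averaged 379 ± 78.6 in old and 75.7 ± 9.3 in young HSC (SD, n = 3 each). On the log2(intensity + 16) scale the difference was 2.09 ± 0.314 (SE), or 4.26-fold (limma with Benjamini-Hochberg adjustment over all 13482 genes tested, adjusted p = 0.006), and with both Scd1 probe sets averaged it was 1.15 (adjusted p 7.86e-06 to 0.0408 over all alternatives). Scd1 was the only one of 31 members called, where 1.31% of all genes were called in this comparison, 1.05% higher and 0.252% lower. In sorted bulk RNA, a change in the number of expressing cells and a change in RNA per cell cannot be told apart.

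Scd1 is also abundant in adipocytes, so markers of bone marrow fat and stroma were read beside it. The 8 such markers measured summed to 718 to 1050 in old and 289 to 889 in young HSC, and most of the sum was Lpl, which encodes lipoprotein lipase and was at 946.4, 623.8 and 765.1 in old against 171.8, 562.6 and 430.7 in young HSC (log2 difference 1.10 ± 0.365, adjusted p = 0.255). The adipocyte-defining Adipoq was at background in old HSC, at 9, 8.9 and 9.3, and at 10.4, 96.9 and 51.7 in young HSC. Pparg was at 14.3 to 16.4 in old and 16.8 to 17.5 in young HSC. Of the 4 markers of this list that passed the filter, 1 was above its young values on all old arrays and 2 were below. Macrophage markers summed to 156 to 173 in old and 275 to 735 in young HSC, and 14 cell cycle genes to 8480 to 11500 in old and 14300 to 21900 in young HSC. The 7 HSC markers summed to 12300 to 15300 in old and 8810 to 11000 in young HSC, all 7 higher in direction. Of these, 3 were called higher, where 1.05% of all genes were. The 8 neutrophil markers were all lower in direction, without a call, and summed to 171 to 1550 in old and 1320 to 5720 in young HSC. The part of these shifts in the Scd1 difference was not tested.

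In mutator cells Scd1 was on the low side. Its intensity was 31.2, 30.4 and 45.2 in mutator HSC, against 242, 165 and 74.6 in mid-aged wild-type HSC. The 3 mutator arrays lay below all 3 wild-type arrays, and the log2 difference was -1.66 ± 0.314 (3.16-fold lower). It did not pass over all genes (limma, adjusted p = 0.521), as no gene did in this comparison: 0 of 13482 were called (0%), while 984 genes and 4 members had an unadjusted p under 0.05. Mid-aged wild-type replicate 3, one of the arrays that go against their sex label, had the lowest wild-type value, and without it the difference was -2.08 with an adjusted p of 0.0309 (range over all alternatives 0.0309 to 1). Within the high-BioB arrays (1 mutator and 1 wild-type) the log2 difference was -2.45, and within the other arrays (2 and 2) it was -1.26. The other Scd1 probe set had 0.06, at 25.6 ± 3.2 on mutator arrays and 23.7 ± 2.11 on those of mid-aged wild-type mice (SD, n = 3 each), and with both averaged the difference was -0.80 (adjusted p = 0.587). Adipoq was at 8.4 to 8.7 in mutator and 8.5 to 9.5 in mid-aged wild-type HSC, at background in both. The 8 fat and stroma markers measured summed to 208 to 248 in mutator and 288 to 463 in mid-aged wild-type HSC. Lpl was at 87.2, 124.1 and 145.2 in mutator and 293.2, 186.3 and 191.8 in mid-aged wild-type HSC. All 4 markers of this list that passed the filter were lower in direction in mutator HSC. Their part in the Scd1 difference was not tested.

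The difference between these effects was itself tested. The mutator effect minus the age effect was -3.75 ± 0.444 on the log2 scale for Scd1 (limma, adjusted p = 0.00315), the only one of 31 members called, against 0.512% of all genes (0.46% lower). It kept its sign and its call under each of the 26 alternatives, with values from -4.30 to -1.95. The smallest of these came from averaging all probe sets of the gene, since its other probe set read 23.7 ± 2.1 in old and 18.4 ± 2.08 in young HSC (SD, n = 3 each), near the 40th percentile of the arrays. By the probe set used, Scd1 was high in old HSC, variable in mid-aged wild-type HSC, lower in young HSC, lower again in mutator HSC and at 14.9 to 20.9 in CLP. The order runs across groups that cannot be told apart from their preparation, and mutator against young HSC was not tested. The other Scd1 probe set did not follow this order. Mid-aged wild-type and young HSC are neighbours in this order that overlapped (log2 difference 0.82 ± 0.314, adjusted p = 0.0796), and without mid-aged wild-type replicate 3 this difference was 1.24 with an adjusted p of 0.00533 (range over all alternatives 0.00533 to 0.342).

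**Figure D1:**
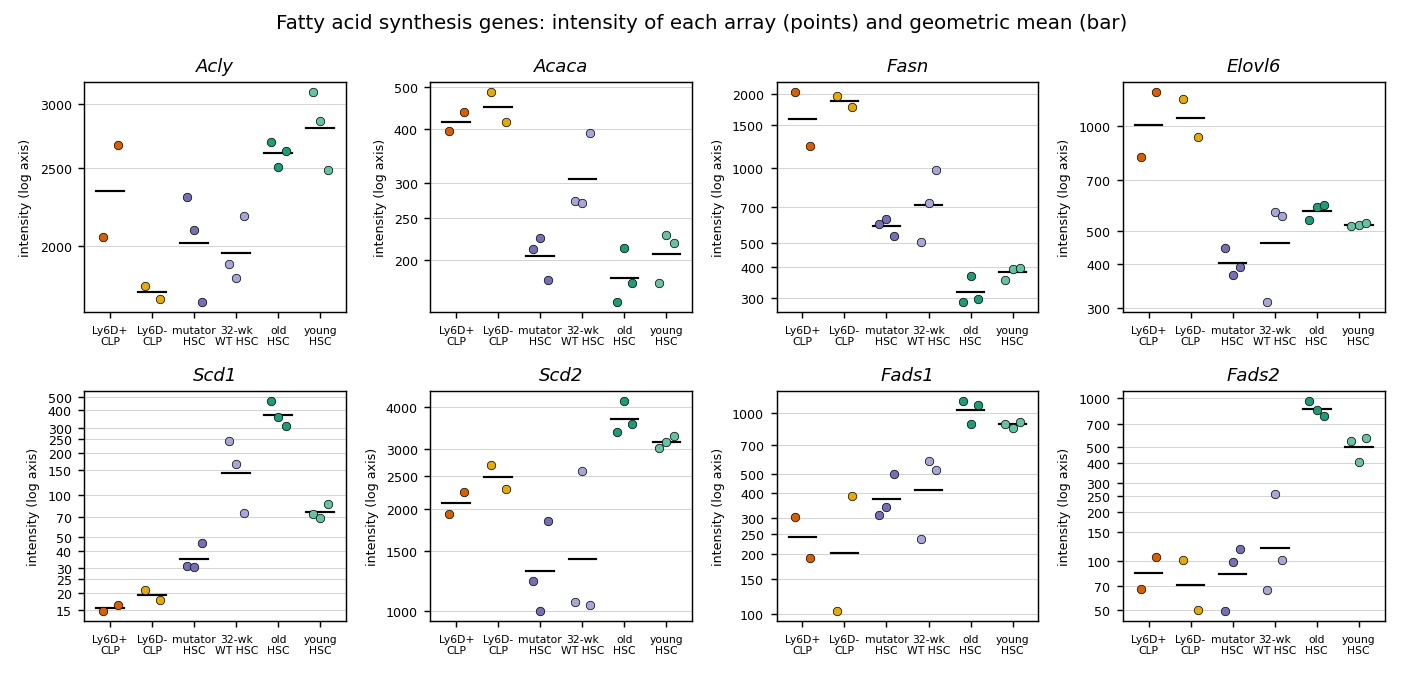
Intensity of the 8 fatty acid genes on each array (log axis), with groups from left to right Ly6D+ CLP, Ly6D- CLP, mutator, mid-aged (32-week) wild-type, old and young HSC. Points are arrays and the horizontal bar is the geometric mean. Scd1 runs from 311 to 465 in old and from 68.2 to 86.1 in young HSC, and Fasn from 1236 to 2028 in CLP and from 290 to 983 in HSC.

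Of the other fatty acid genes of the set, Fads2, Scd2 and Elovl6 had old values above all young values, without passing the test. Fads2, the delta-6 desaturase of polyunsaturated fatty acid synthesis, was at 961, 847 and 784 in old HSC, against 549, 404 and 569 in young HSC. The log2 difference was 0.76 ± 0.389 (adjusted p = 0.672). Scd2, a second stearoyl-CoA desaturase gene, was at 3365, 4151 and 3567 in old and 3027, 3148 and 3275 in young HSC (log2 difference 0.22 ± 0.321, adjusted p = 1). Elovl6, which elongates palmitate to stearate, was at 536 to 593 in old and 517 to 525 in young HSC (0.13 ± 0.201, adjusted p = 1). With Scd1, 4 of 8 fatty acid genes had old values above all young values by the probe sets used, where 14% of all genes did. Scd2 and Elovl6 each had probe sets of opposite sign. With all probe sets of a gene averaged, the difference was 0.06 for Elovl6 and 0.51 for Fads2 (adjusted p = 0.444). Of 18 fatty acid pathway genes tested outside the set, 11 had a positive and 7 a negative difference, and none was called. Old values lay above all young values for 4 of them and below for 4, where 14% and 13.2% of all genes did. Among these, named after their values were seen, Acsl4 had 0.73 ± 0.33 (adjusted p = 0.539) and the elongase gene Elovl5 -0.53 ± 0.227 (adjusted p = 0.487). The upstream members of the set were not higher in direction: Acly, which makes cytosolic acetyl-CoA, had a log2 difference of -0.10 ± 0.152, Acaca, which makes malonyl-CoA, -0.17 ± 0.182, and Fasn, the fatty acid synthase, -0.25 ± 0.211, each with an adjusted p of 1. Fads1, the delta-5 desaturase, was at 1149, 885 and 1106 in old and 883, 850 and 911 in young HSC (0.24 ± 0.289, adjusted p = 1). Fads2 passed when array weights were used (0.80, adjusted p = 0.012) or when only the old and young arrays were fitted (0.76, adjusted p = 0.0235), within a range of 0.012 to 1 over all alternatives, and with array weights Insig1, Tm7sf2 and Fasn passed too.

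No sterol enzyme passed the test between old and young HSC. None of the 16 was called, none had an unadjusted p under 0.05, and 10 had a positive and 6 a negative log2 difference, with a median of 0.054 beside -0.009 over all genes. Hmgcs1, which condenses acetyl-CoA units ahead of mevalonate, was at 1031, 1264 and 987 in old and 1159, 782 and 930 in young HSC (log2 difference 0.20 ± 0.186, adjusted p = 1). Sqle, the squalene epoxidase, was at 575, 601 and 553 in old and 633, 512 and 452 in young HSC (0.13 ± 0.424, adjusted p = 1). Idi1, the isopentenyl diphosphate isomerase, was at 866, 670 and 902 in old and 1008, 652 and 685 in young HSC (0.07 ± 0.29, adjusted p = 1). In each of these the young array with the highest value was replicate 1. Dhcr7, the reductase that makes cholesterol from its direct precursor, was the only enzyme whose groups did not overlap, at 225, 194 and 168 in old and 251, 240 and 236 in young HSC (-0.30 ± 0.288, adjusted p = 1), where 13.2% of all genes had old values below all young values. The largest log2 differences among the enzymes were 0.33 ± 0.198 for Tm7sf2, a sterol C14 reductase (adjusted p = 0.835), and -0.30 ± 0.255 for Ebp, the sterol isomerase. With array weights Tm7sf2 passed (0.39, adjusted p = 0.0198).

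That pattern within the young group held for the whole enzyme list. Young replicate 1 had the highest value of the 3 young arrays for 16 of 16 sterol enzymes, while it was the highest for 50.3% of all 13482 genes and for 1 of 8 fatty acid genes. For Fdps, the farnesyl diphosphate synthase, it read 113 beside 67.4 and 71.7 on replicates 2 and 3, and for Lss, the lanosterol synthase, 192 beside 127 and 124. The mean log2 intensity of the 16 enzymes was 7.93 to 8.08 on old arrays, and on young arrays it was 8.26 on replicate 1 and 7.85 and 7.86 on the others. Young replicate 1 also had the lowest mean of the 14 cell cycle genes among young arrays, 8.90 against 9.75 to 9.80, and replicates 2 and 3 were the closest pair of arrays within any group, with an SD of their log2 difference over genes of 0.164. Left out, it moved the enzymes' median difference between old and young HSC to 0.205, with 12 of 16 positive, and leaving out young replicate 2 instead moved it to -0.055, with 7 of 16 positive. No enzyme was called in either fit.

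**Figure D2:**
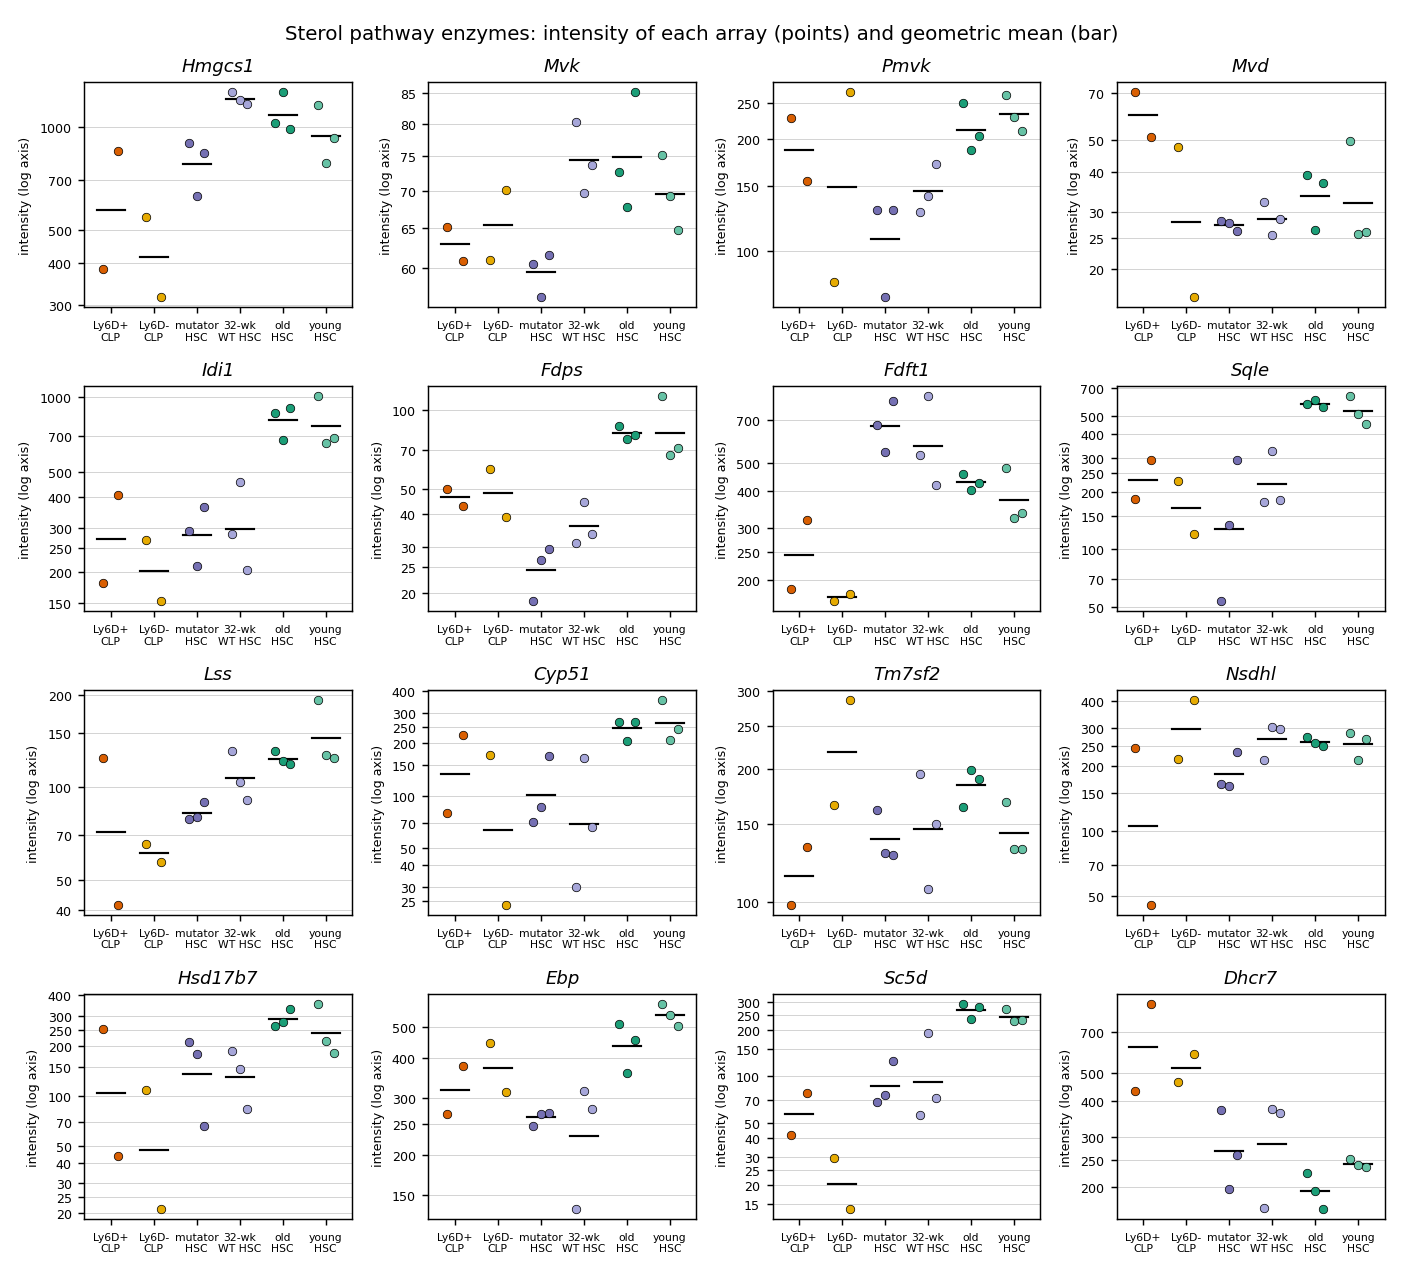
Intensity of sterol enzyme genes on each array (log axis), with groups ordered as Ly6D+ CLP, Ly6D- CLP, mutator, mid-aged (32-week) wild-type, old and young HSC, points for arrays and a bar for the geometric mean. Old and young HSC overlap for all enzymes but Dhcr7, where old HSC lie at 168 to 225 and young HSC at 236 to 251.

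Among the genes that control and move sterols, old and young values overlapped. Insig1, which retains the SREBP precursors, was at 410, 618 and 381 in old and 474, 267 and 246 in young HSC (log2 difference 0.52 ± 0.298, adjusted p = 0.783). Abca1, the cholesterol exporter, was at 384, 545 and 390 in old and 208, 314 and 409 in young HSC (0.51 ± 0.329, adjusted p = 0.885). Srebf2 was at 467, 456 and 391 in old and 333, 368 and 394 in young HSC (0.25 ± 0.179, adjusted p = 0.95). All 3 had overlapping groups, as did the remaining regulators: Insig2 had a log2 difference of 0.24 ± 0.302, Srebf1 of -0.05 ± 0.149, Scap of -0.12 ± 0.315 and Stard4, which carries cholesterol between membranes, of -0.02 ± 0.271, each with an adjusted p of 1.

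In mutator HSC, the enzyme that enters the mevalonate route was lower than in mid-aged wild-type HSC, without passing the test over all genes. Hmgcs1 was at 899, 627 and 838 in mutator HSC, against 1267, 1205 and 1167 in mid-aged wild-type HSC. The groups did not overlap, and the log2 difference was -0.63 ± 0.186 (1.54-fold lower, adjusted p = 0.564), while its 3 other probe sets above the 40th percentile had 0.27, 0.05 and -0.30 with overlapping groups, and with all its probe sets averaged it was -0.10 (adjusted p = 0.977, in a range of 0.17 to 1 over all alternatives). All 6 mevalonate-route genes had a negative difference, with a median of -0.309 beside -0.004 over all genes. Mvk, the mevalonate kinase, was at 56.6 to 61.6 in mutator and 69.7 to 80.3 in mid-aged wild-type HSC (-0.26 ± 0.129, adjusted p = 0.704), and Fdps at 18.6, 26.7 and 29.3 in mutator and 31, 44.4 and 33.6 in mid-aged wild-type HSC (-0.36 ± 0.189, adjusted p = 0.731). Pmvk, the phosphomevalonate kinase, had -0.38 ± 0.205, Idi1 -0.08 ± 0.29 and Mvd, the mevalonate diphosphate decarboxylase, -0.04 ± 0.187. With 1 array left out at a time, 5 or 6 of the 6 differences stayed negative and the median lay between -0.36 and -0.19.

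Over all 31 members, 22 had a negative and 9 a positive difference in mutator HSC, with a median of -0.137. Mutator values lay below all mid-aged wild-type values for 6 members (Hmgcs1, Mvk, Fdps, Lss, Acaca and Scd1), where 2.97% of all genes did, and above them for 0 members, where 3.11% did. Acaca was at 212, 224 and 180 in mutator and 274, 271 and 393 in mid-aged wild-type HSC (log2 difference -0.555 ± 0.182, adjusted p = 0.607). Nsdhl, an X-linked sterol dehydrogenase gene, was at 166, 163 and 234 in mutator and 215, 305 and 297 in mid-aged wild-type HSC (-0.50 ± 0.186, adjusted p = 0.621). Within the high-BioB arrays, 1 of each group, and within the others, 15 of 31 members had the same sign, 11 lower and 4 higher in mutator HSC. The share of all genes with the same sign was not computed. The remaining members did not keep their sign, such as Dhcr7 (1.08 and -0.67), Elovl6 (0.49 and -0.53) and Fasn (0.24 and -0.54). Hmgcs1 had -0.49 within the high-BioB arrays and -0.70 within the others, and Acaca -0.34 and -0.66. The sterol ring enzymes went both ways, with 4 of 10 positive: Cyp51, the lanosterol demethylase, had a log2 difference of 0.43 ± 0.432, Fdft1, the squalene synthase, of 0.22 ± 0.248, and Sqle of -0.67 ± 0.424. The 5 regulators had a median of 0.06, with values from -0.26 ± 0.149 for Srebf1 to 0.44 ± 0.302 for Insig2. For Hmgcs1 the mutator effect minus the age effect was -0.83 ± 0.262 and did not pass (adjusted p = 0.343), while it passed with array weights (-1.09, adjusted p = 0.0446, in a range of 0.0446 to 0.877).

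Mid-aged wild-type HSC differed from young HSC in 14 of 31 members, 1 higher and 13 lower, where 24.2% of all genes were called, 6.42% higher and 17.7% lower. The sources of these arrays differed in the actin ratio and in LysX as given above, so age and preparation cannot be told apart here. Of 14 cell cycle genes 13 were lower in direction and 3 called lower (summed intensity 9000 to 15200 in mid-aged wild-type and 14300 to 21900 in young HSC). All 8 macrophage markers were lower in direction (172 to 258 in mid-aged wild-type and 275 to 735 in young HSC). Of the 7 HSC markers 5 were lower and 2 higher in direction, and 3 were called lower. Their summed intensity was 5580 to 7640 in mid-aged wild-type and 8810 to 11000 in young HSC. The part of these shifts in the result was not tested. The 5 sterol regulators had the lowest median of the role groups (-1.498). Srebf2 was at 116, 113 and 127 in mid-aged wild-type HSC, against 333, 368 and 394 in young HSC, with no overlap (log2 difference -1.50 ± 0.179, adjusted p = 0.000392). Insig1 was at 83.5, 112 and 93.6 in mid-aged wild-type and 474, 267 and 246 in young HSC (-1.57 ± 0.298, adjusted p = 0.00368). Insig2, the second Insig gene, was at 117, 275 and 167 in mid-aged wild-type and 452, 552 and 583 in young HSC (-1.50 ± 0.302, adjusted p = 0.00493). Srebf1 and Scap were not called (0.29 ± 0.149, adjusted p = 0.186, and 0.03 ± 0.315, adjusted p = 0.953), nor were Stard4 and Abca1.

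**Figure D3:**
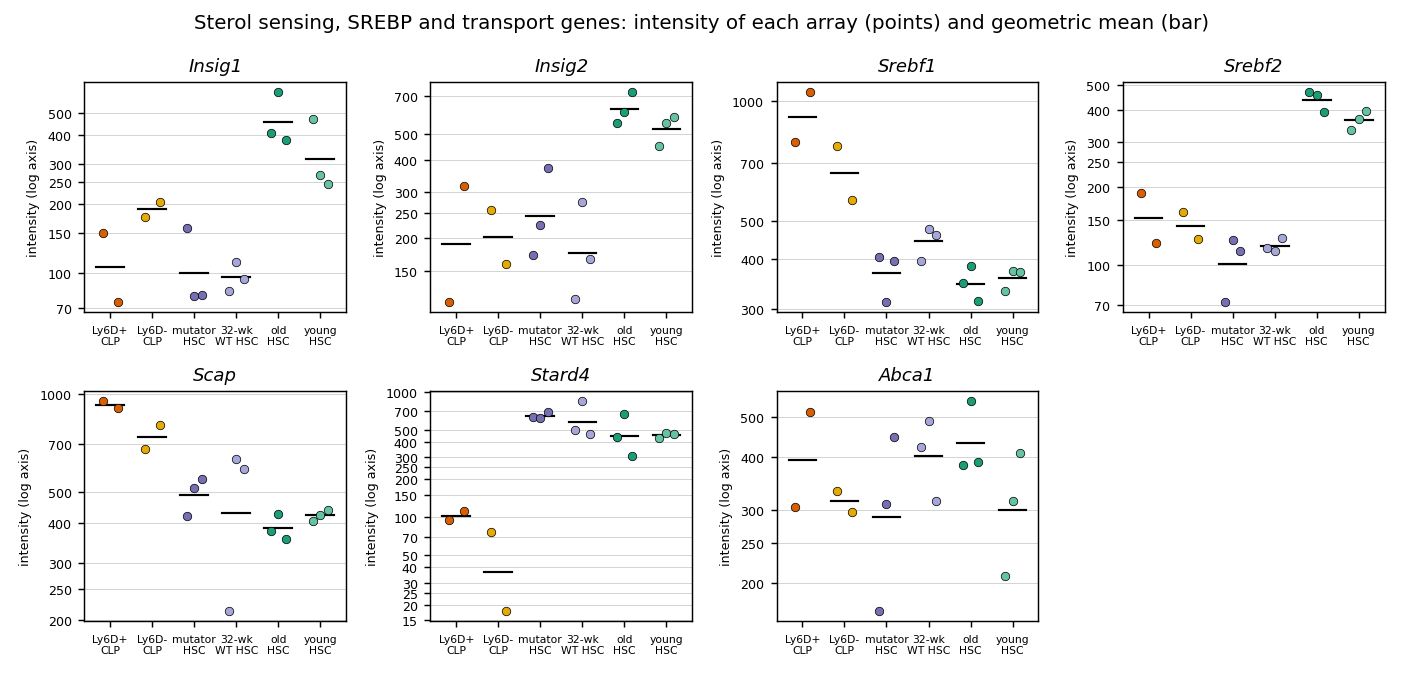
Intensity of the sterol sensing, SREBP and transport genes on each array (log axis), in the group order Ly6D+ CLP, Ly6D- CLP, mutator, mid-aged (32-week) wild-type, old and young HSC, with points for arrays and a bar for the geometric mean. Srebf2 lies at 113 to 127 in mid-aged wild-type and 333 to 394 in young HSC, and Stard4 at 17.9 to 112 in CLP and 305 to 840 in HSC.

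Of the 16 sterol enzymes, 6 were lower in mid-aged wild-type than in young HSC and none was higher. Fdps fell by 0.91 ± 0.189 on the log2 scale (adjusted p = 0.00562), Ebp by 1.19 ± 0.255 (adjusted p = 0.00674) and Idi1 by 1.31 ± 0.29 (adjusted p = 0.00764). Cyp51, at 30, 164 and 65.8 in mid-aged wild-type and 355, 210 and 243 in young HSC, fell by 1.67 ± 0.432 (adjusted p = 0.0167), Sc5d, a sterol desaturase gene, by 1.24 ± 0.334 (adjusted p = 0.0199) and Pmvk by 0.63 ± 0.205 (adjusted p = 0.0443). The median of the 16 was -0.504, beside -0.037 over all genes. Without young replicate 1, the array that was high for all sterol enzymes, 8 of the 31 members were called in place of 14, and 9 were called without young replicate 2. The calls of Idi1, Fdps, Ebp, Insig1, Insig2, Srebf2 and Fads2 were kept in every alternative, while those of Pmvk, Cyp51, Sc5d, Acly, Scd2 and Fads1 were lost when 1 array or another was left out.

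The fatty acid genes split in this comparison. Fasn rose, at 504, 728 and 983 in mid-aged wild-type HSC, against 355, 393 and 396 in young HSC, with no overlap (log2 difference 0.88 ± 0.211, 1.84-fold, adjusted p = 0.0118). Fads2 fell, at 66.2, 258 and 101 in mid-aged wild-type and 549, 404 and 569 in young HSC (-1.905 ± 0.389, adjusted p = 0.00524). The other calls were lower in mid-aged wild-type HSC: Fads1 at -1.05 ± 0.289 (adjusted p = 0.0214), Scd2 at -1.14 ± 0.321 (adjusted p = 0.0241) and Acly at -0.51 ± 0.152 (adjusted p = 0.0311). Acaca had 0.54 ± 0.182 (adjusted p = 0.0507). The Fasn call was lost when only these groups were fitted (adjusted p = 0.0566, in a range of 0.00092 to 0.0566).

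Probe sets of the same gene did not always move the same way between mid-aged wild-type and young HSC. Of 18 members with several probe sets above the 40th percentile, 11 had probe sets of opposite sign. For Hmgcs1 the probe set used here had a log2 difference of 0.35, at 1210 ± 50.9 in mid-aged wild-type and 957 ± 190 in young HSC (SD, n = 3 each), while its 3 other probe sets above that percentile had -1.79, -1.24 and -1.53. Between old and young HSC the same 4 Hmgcs1 probe sets all had positive differences, from 0.20 to 0.63. Fads1 had -1.05 by the probe set used and 0.89 by another, and Srebf2 -1.50 and 0.02. When every probe set of a gene was averaged, Hmgcs1 had -0.81 (adjusted p = 0.0428) and Elovl6 0.70 (adjusted p = 0.034) in place of 0.35 (adjusted p = 0.195) and -0.17 (adjusted p = 0.586).

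**Figure D4:**
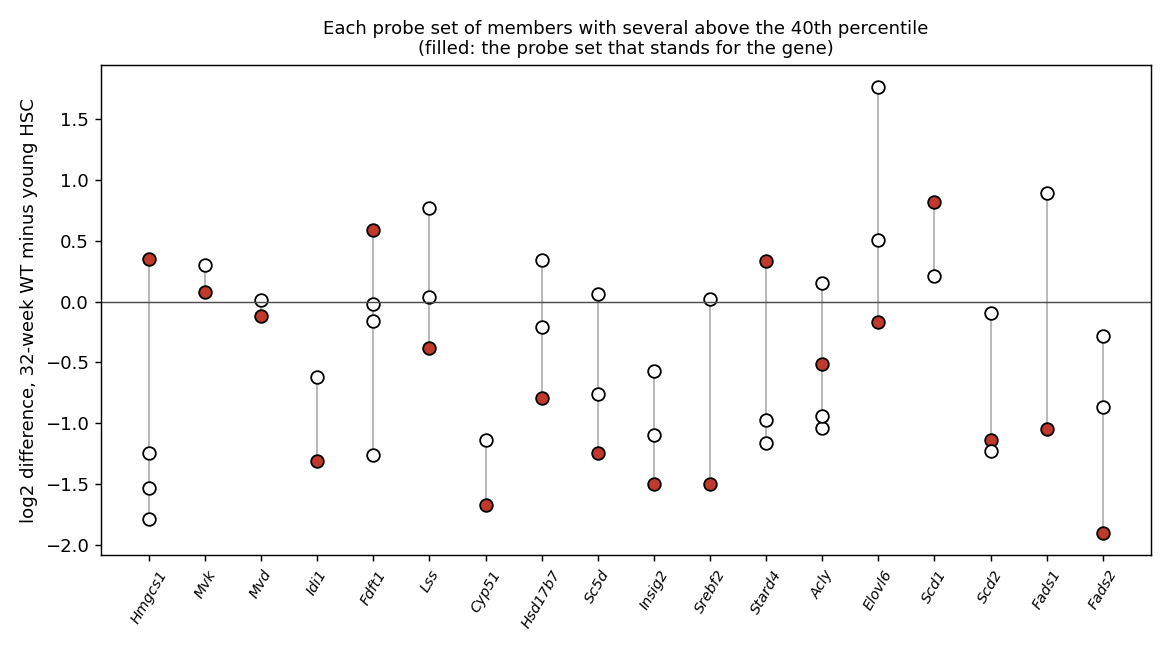
Log2 difference between mid-aged (32-week) wild-type and young HSC for each probe set of the members that have several above the 40th percentile; the filled point is the probe set that stands for the gene. Hmgcs1 has probe sets from -1.79 to 0.35 and Fads1 at -1.05 and 0.89.

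Common lymphoid progenitors, the lymphoid-primed descendants of stem cells, had higher Fasn, Acaca, Elovl6, Srebf1 and Dhcr7 than young HSC and lower Scd1, Fads1, Fads2, Stard4, Srebf2 and Sc5d. In Ly6D+ CLP 16 of 31 members were called, 6 higher and 10 lower, where 24.3% of all genes were called (10.4% higher, 13.9% lower). In Ly6D- CLP 19 of 31 were called, 5 higher and 14 lower, where 24.4% of all genes were called (9.55% higher, 14.9% lower). Both comparisons use the same 3 young arrays. The CLP arrays also differed from the young arrays in LysX, BioB and the sex-linked genes, so that cell type and preparation cannot be told apart. Ly6D- CLP replicate 2 also stood apart in neutrophil genes: S100a8 was at 1370.8 on it and 16.1 on replicate 1, Ngp at 1120.9 and 41.5, and Camp at 820.6 and 33.8, and the 8 neutrophil markers summed to 1830 to 2370 in Ly6D+ CLP, 4580 to 7880 in Ly6D- CLP and 1320 to 5720 in young HSC. Their part in the results was not tested. Without that array, 10 members were called in Ly6D- CLP.

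Fasn was at 2028 and 1236 in Ly6D+ CLP and 1962 and 1772 in Ly6D- CLP, against 355, 393 and 396 in young HSC. All 4 CLP arrays lay above the 12 HSC arrays, which ran from 290 to 983. The log2 difference was 2.01 ± 0.253 in Ly6D+ CLP (adjusted p = 7.97e-05) and 2.245 ± 0.253 in Ly6D- CLP (adjusted p = 4.04e-05). Acaca, one step before Fasn, was at 397 and 438 in Ly6D+ CLP and 487 and 416 in Ly6D- CLP, against 177, 228 and 219 in young HSC (0.96 ± 0.193, adjusted p = 0.00283, and 1.065 ± 0.193, adjusted p = 0.00156). Elovl6 was at 815 and 1250 in Ly6D+ CLP and 1195 and 930 in Ly6D- CLP, against 517, 518 and 525 in young HSC (0.94 ± 0.243, adjusted p = 0.013, and 0.998 ± 0.243, adjusted p = 0.00948). Srebf1 was also higher, at 790 and 1053 in Ly6D+ CLP and 773 and 563 in Ly6D- CLP, against 334, 375 and 373 in young HSC (1.30 ± 0.187, adjusted p = 0.000228, and 0.85 ± 0.187, adjusted p = 0.00528). The Fasn and Acaca calls were kept in every alternative of both comparisons, and the Elovl6 calls were lost when 1 array or another was left out.

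The desaturase genes Fads1, Fads2 and Scd1 went the other way by the probe sets used. In Ly6D+ CLP, however, Fads2 and Scd1 each had probe sets of opposite sign. Fads2 was at 66.8 and 106 in Ly6D+ CLP and 102 and 50.3 in Ly6D- CLP, against 549, 404 and 569 in young HSC (log2 differences -2.36 ± 0.443, adjusted p = 0.00176, and -2.55 ± 0.443, adjusted p = 0.00115). Fads1 was at 306 and 190 in Ly6D+ CLP and 104 and 390 in Ly6D- CLP, against 883, 850 and 911 in young HSC (-1.80 ± 0.451, adjusted p = 0.0105, and -2.02 ± 0.451, adjusted p = 0.00554). These calls were lost without Ly6D+ CLP replicate 2 (adjusted p = 0.0939, in a range of 0.00245 to 0.0939) and without Ly6D- CLP replicate 1 (adjusted p = 0.0751, in a range of 0.000667 to 0.0751), and the other Fads1 probe set had 0.14 in Ly6D- CLP, with overlapping groups. Scd1 was at 14.9 and 16.5 in Ly6D+ CLP and 20.9 and 17.9 in Ly6D- CLP, around the 40th percentile of those arrays (17.8 to 17.9), so that its log2 differences of -1.53 ± 0.328 (adjusted p = 0.00421) and -1.37 ± 0.328 (adjusted p = 0.00856) depend on the 16 added before the log. Without Ly6D- CLP replicate 2 the second of these had an adjusted p of 0.0573 (range over all alternatives 0.00212 to 0.0573). Acly had -0.26 ± 0.17 in Ly6D+ CLP (adjusted p = 0.314) and was called lower in Ly6D- CLP (-0.67 ± 0.17, adjusted p = 0.0119), but 1 of its other probe sets was higher there (0.65), and with its probe sets averaged the difference was 0.02 (adjusted p = 0.936). Scd2 was not called in either (-0.59 ± 0.339 in Ly6D+ and -0.34 ± 0.339 in Ly6D- CLP).

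Among sterol genes Stard4 had the log2 difference of largest size in both kinds of CLP. It was at 94.1 and 112 in Ly6D+ CLP and 75.8 and 17.9 in Ly6D- CLP, against 432, 467 and 463 in young HSC, and all 12 HSC arrays lay between 305 and 840. The log2 difference was -1.985 ± 0.384 in Ly6D+ CLP (adjusted p = 0.00216) and -3.07 ± 0.384 in Ly6D- CLP (adjusted p = 9.17e-05), and its 3 probe sets each had a negative difference in both. Sc5d was at 42.1 and 78.6 in Ly6D+ CLP and 29.5 and 13.9 in Ly6D- CLP, against 274, 227 and 230 in young HSC (-1.80 ± 0.385, adjusted p = 0.00409, and -2.81 ± 0.385, adjusted p = 2e-04). On Ly6D- CLP replicate 2, Stard4 (17.9) was at the percentile used as the filter (17.8 on that array) and Sc5d (13.9) was below it. The size of their differences in Ly6D- CLP thus depends on the constant added before the log. Srebf2 was at 190 and 122 in Ly6D+ CLP and 160 and 126 in Ly6D- CLP, against 333, 368 and 394 in young HSC (-1.17 ± 0.218, adjusted p = 0.00171, and -1.26 ± 0.218, adjusted p = 0.00113), although its other probe set had 0.62 in Ly6D+ and -0.27 in Ly6D- CLP.

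Idi1 and Insig2 were called lower in both kinds of CLP. Idi1 was at 180 and 406 in Ly6D+ CLP and 268 and 153 in Ly6D- CLP, against 1008, 652 and 685 in young HSC (log2 differences -1.45 ± 0.385, adjusted p = 0.0149, and -1.835 ± 0.385, adjusted p = 0.00386). Fdps (-0.65 ± 0.213, adjusted p = 0.0403) and Insig1 (-1.43 ± 0.349, adjusted p = 0.00888) passed in Ly6D+ CLP, and Hmgcs1 (-1.15 ± 0.307, adjusted p = 0.0152), Fdft1 (-1.04 ± 0.288), Sqle (-1.58 ± 0.481), Lss (-1.06 ± 0.296) and Hsd17b7, a sterol ketoreductase gene (-1.91 ± 0.638), passed in Ly6D- CLP. Dhcr7 was the only sterol enzyme called higher, at 435 and 874 in Ly6D+ CLP and 468 and 585 in Ly6D- CLP, against 251, 240 and 236 in young HSC (1.295 ± 0.351, adjusted p = 0.0164, and 1.06 ± 0.351, adjusted p = 0.0424). Scap was at 950 and 905 in Ly6D+ CLP, against 404, 424 and 438 in young HSC (1.11 ± 0.331, adjusted p = 0.0264). All of these calls but those of Stard4, Srebf1 in Ly6D+ CLP, and Sc5d and Srebf2 in Ly6D- CLP were lost under some alternative, and with 1 array left out at a time 11 to 14 members were called in Ly6D+ CLP and 10 to 16 in Ly6D- CLP, with 10 reached without Ly6D- CLP replicate 2 and 12 without young replicate 1.

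Between Ly6D+ and Ly6D- CLP, which carry or lack the surface protein Ly6D as a mark of B-lineage specification, no member was called. Of all genes 2.68% were called (limma), and 7 members had an unadjusted p under 0.05. LysX read 1770 to 2250 on Ly6D+ and 2910 to 3520 on Ly6D- arrays. Of the 23 sterol genes, 16 had a positive difference, with a median of 0.321, beside 52.2% positive and a median of 0.015 over all genes. The other sterol pathway genes listed went the other way, with 5 of 16 positive and a median of -0.289, and the fatty acid members had a median of -0.083. The mean log2 intensity of the 16 sterol enzymes was 7.36 and 7.41 on the Ly6D+ arrays. On Ly6D- CLP it was 7.34 on replicate 1 and 7 on replicate 2, the array that stood apart in neutrophil genes. The positive differences of the sterol enzymes thus lean on that array. Tm7sf2, at 98.4 and 133 in Ly6D+ and 166 and 286 in Ly6D- CLP, had the lowest adjusted p (0.155, log2 difference -0.845 ± 0.276). Stard4 had 1.09 ± 0.42 (adjusted p = 0.258), Mvd 0.75 ± 0.294 (adjusted p = 0.265), Sc5d 1.01 ± 0.422 (adjusted p = 0.316) and Nsdhl -1.31 ± 0.488 (adjusted p = 0.235). Stard4, Mvd and Sc5d were among the 9 of 19 members with several probe sets that had opposite signs among them here. For Sc5d, 1 probe set lay above and another below all Ly6D- values. With its probe sets averaged, the Sc5d difference was 0.33 (limma, adjusted p = 0.737). On Ly6D- CLP replicate 2, Stard4, Mvd and Sc5d read 17.9, 16.4 and 13.9, beside a filter percentile of 17.8. The Ly6D+ replicates differed widely in several sterol genes: Hsd17b7 was at 251 and 43.6, Nsdhl at 244 and 45.6 and Hmgcs1 at 383 and 848 in Ly6D+ CLP. With Ly6D- CLP replicate 1 left out 3 members were called, and with Ly6D+ CLP replicate 1 left out 1 was, each against a single array assumed to vary like the other groups.

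**Figure D5:**
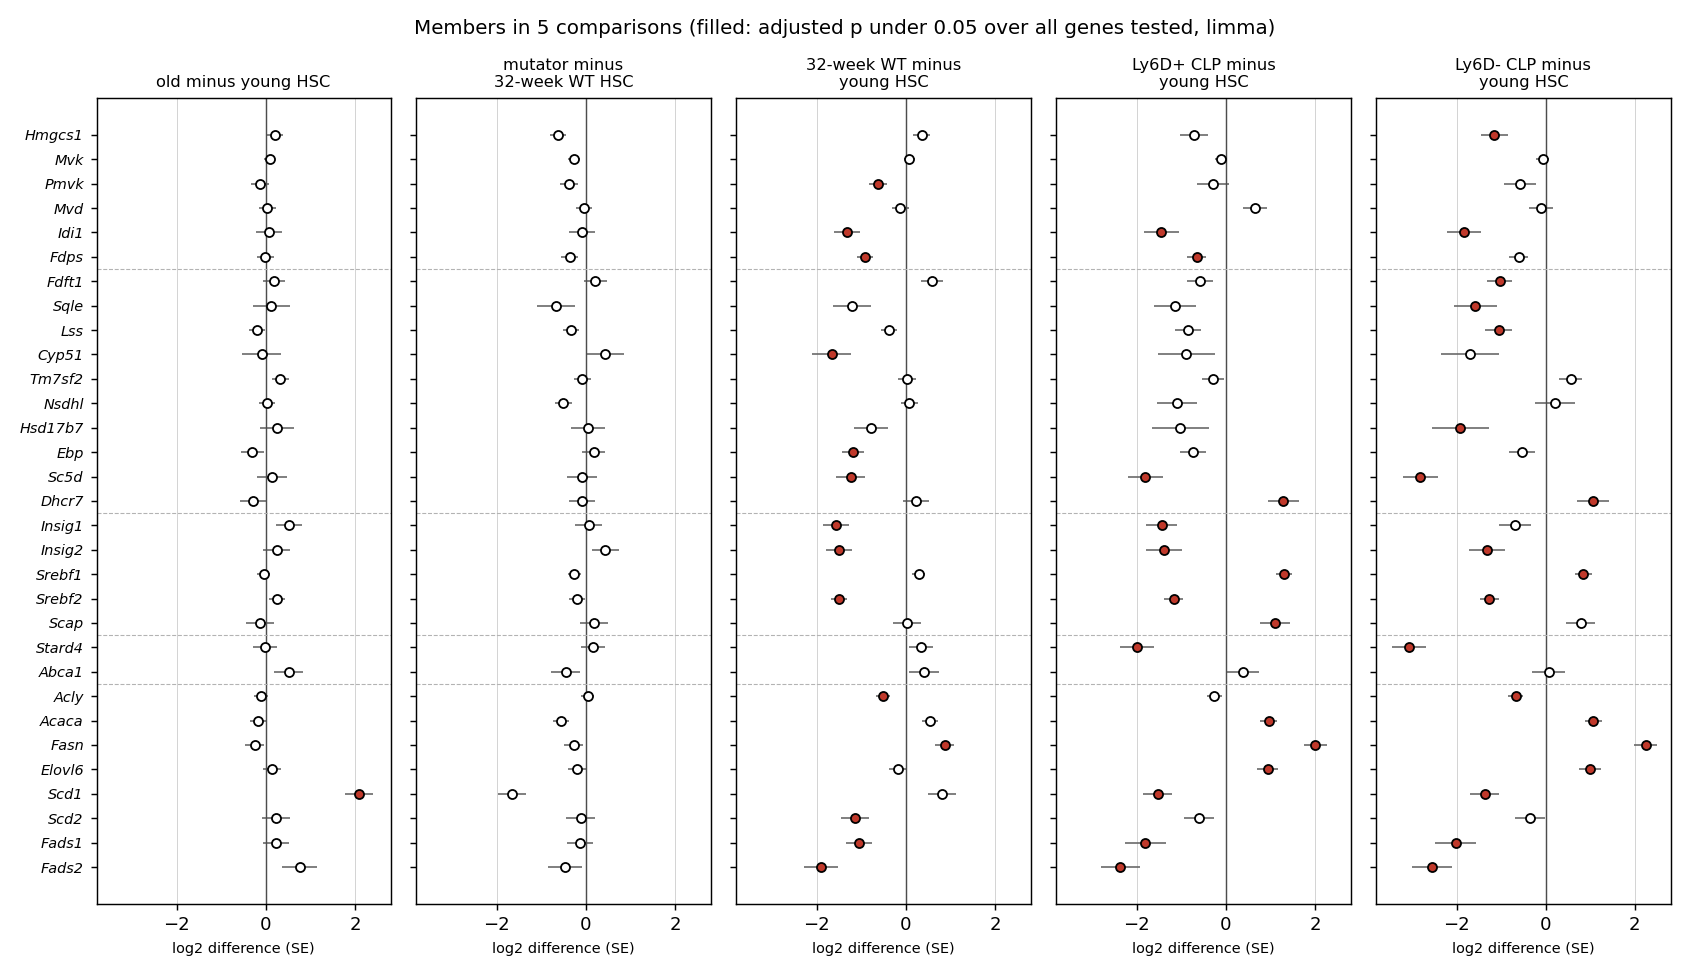
Log2 difference with its standard error (horizontal axis) for the 31 members (rows, by role) in 5 comparisons, with filled points where the adjusted p over all genes tested (limma) was under 0.05. Scd1 is the only filled member in old against young HSC, none is filled in mutator against mid-aged wild-type HSC, and 14 are filled in mid-aged wild-type against young HSC.

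Other genes of these pathways were counted from a list of 20 sterol and 20 fatty acid genes, of which 16 and 18 were tested. None was called between old and young, mutator and mid-aged wild-type, or Ly6D+ and Ly6D- CLP (limma), where 1 sterol and 3 fatty acid genes, 1 and 0, and 4 and 3 had an unadjusted p under 0.05. In mid-aged wild-type against young HSC, 7 of 16 sterol genes were lower and none higher, where 17.7% of all genes were lower and 6.42% higher. They included the NF-Y subunit genes Nfya (-1.94 ± 0.337, adjusted p = 0.00242) and Nfyb (-2.01 ± 0.368, adjusted p = 0.00306) and Mbtps2 (-1.47 ± 0.25, adjusted p = 0.00217), the second protease that frees SREBP. Of the 18 fatty acid genes, 3 were higher there (Elovl7, Acss2 and Fabp5) and 5 lower, against the same shares, with Elovl7, an elongase gene, at 1.49 ± 0.218 (adjusted p = 0.00104) and Acsl3, an acyl-CoA synthetase gene, at -1.48 ± 0.238 (adjusted p = 0.00165).

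In CLP, Acss2, which makes acetyl-CoA from acetate, was lower than in young HSC (log2 difference -1.79 ± 0.233, adjusted p = 0.000104, in Ly6D+ CLP and -2.19 ± 0.233, adjusted p = 2.33e-05, in Ly6D- CLP), as were the acyl-CoA synthetase genes Acsl3 and Acsl4 and Mid1ip1, a regulator of acetyl-CoA carboxylase. The remaining fatty acid gene called lower was an elongase gene in each, Elovl7 in Ly6D+ CLP (-1.23 ± 0.312, adjusted p = 0.0115) and Elovl5 in Ly6D- CLP (-0.73 ± 0.238, adjusted p = 0.0409), unlike the member Elovl6. Mbtps2 was lower in both (-2.38 ± 0.332, adjusted p = 0.000184, and -1.03 ± 0.332, adjusted p = 0.0381). In Ly6D+ CLP, 2 sterol and 2 fatty acid genes of these lists were higher and 6 and 5 lower, where 10.4% of all genes were higher and 13.9% lower. In Ly6D- CLP 0 and 1 were higher and 2 and 5 lower, where 9.55% and 14.9% of all genes were, so that the sterol count there is near the background. The genes called higher were Tmem97, Nfyc, Slc25a1, the mitochondrial citrate carrier, and Mcat in Ly6D+ CLP, and Tecr, the last reductase of the elongation cycle, in Ly6D- CLP.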

How the data were processed

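RNA of sorted cells was hybridised to Affymetrix Mouse Genome 430 2.0 arrays, per the labels' platform and protocols. The deposited values are linear intensities of 45101 probe sets on 16 arrays, already summarised and scaled by the authors; which summary method, in which version, is not given in the sources used here. Of the probe sets, 34958 carried 1 gene symbol in the platform annotation, 932 several and 9211 none, and those with several or none, with 64 control probe sets, entered no test. No further scaling was applied. Values were analysed as log2(intensity + 16), which understates the change of dim genes, and every log2 difference, fold and SE is on that scale. Genes entered a test where the intensity passed the array's 40th percentile in 3 or more of the 12 HSC arrays (13482 genes) or, for CLP comparisons, in 2 or more of all 16 (14344 genes).

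limma 3.58.1 in R 4.3.3 was fitted with 1 mean per group over all 12 HSC arrays, or all 16 arrays for CLP, with empirical Bayes moderation, and p-values were adjusted by Benjamini-Hochberg over all genes tested, with a threshold of 0.05. The number of arrays limits the precision. The p-values rest on the spread between arrays within groups, taken over all groups fitted. That spread was unequal. The SD over genes of the log2 difference between replicates was 0.253 to 0.298 in old and 0.164 to 0.299 in young HSC. It was 0.342 to 0.551 in mutator and 0.489 to 0.683 in mid-aged wild-type HSC. The shared estimate is thus wide for old against young HSC. With the number of mice per replicate not stated, the p-values need not describe variation between animals. Replicate numbers were not used to pair samples across groups, and the main fit had no block. Correlations of same-numbered deviations ran from -0.062 to 0.509, and not every one passed 0.1. Differently numbered arrays reached 0.477, so these values do not settle whether some arrays were paired. All 31 members are named, and other pathway genes only where called. The members and lists were chosen with earlier results of these data known. Promoters are RefSeq's for GRCm38.p6, and the scripts were tested on simulated data. Alternatives were other normalizations (quantile, median centring), filters (none, 60th percentile), pseudocounts (1 and 64), the mean of all probe sets, moderation with trend and robust settings, array weights, a replicate block, a fit of only the groups compared and leaving out each array; chosen after seeing the data were the BioB level as a block, leaving out the 2 HSC arrays with high BioB, and averaging young replicates 2 and 3.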

Additional observations from a re-analysis of the deposited data

Results flagged for a closer look

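The effect of the mutator genotype on Scd1 and the effect of age on it went in opposite directions, and the test of their difference passed: the mutator effect minus the age effect was -3.75 on the log2 scale (limma, adjusted p = 0.00315), with all 3 mutator arrays below all 3 mid-aged wild-type arrays and all 3 old arrays above all 3 young arrays. No other member passed this test. The mutator difference alone did not pass (-1.66, adjusted p = 0.521, and -0.80, adjusted p = 0.587, with both probe sets averaged), and the gene's dimmer probe set had 0.06 there.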

How the results depend on the processing

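The Scd1 call between old and young HSC and the call of its difference of effects held under all 18 and 26 alternatives (adjusted p from 7.86e-06 to 0.0408 and from 0.00031 to 0.0163). The count of members called between old and young HSC was 1 except with array weights (5, of which 4 were higher) and when only these groups were fitted (2). For mutator against mid-aged wild-type HSC it was 0 to 1 with 1 array left out, 1 being Scd1 without mid-aged wild-type replicate 3. The difference of effects had 2 calls with array weights. Between mid-aged wild-type and young HSC the count of 14 became 8 with only these groups fitted, 9 with young replicates 2 and 3 averaged, and 8 to 14 with 1 array left out. It was 0 to 3 between Ly6D+ and Ly6D- CLP and 10 to 16 for Ly6D- CLP against young HSC with 1 array left out. Reversed with the mean of all probe sets were Hmgcs1 (-0.81) and Elovl6 (0.70) in mid-aged wild-type against young HSC and Acly (0.02) in Ly6D- CLP against young HSC; in 16 further instances over the 7 comparisons a difference not called under either setting changed sign there, such as Stard4 (-0.60) and Fdft1 (-0.21) in mid-aged wild-type against young HSC.

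A block by replicate number gave 1 member called between old and young HSC, 0 between mutator and mid-aged wild-type and 14 between mid-aged wild-type and young. It gave 1 for the difference of effects, 0 between CLP kinds, and 17 in each CLP comparison with young HSC.

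Counts over all genes moved more. Those of old against young HSC (176) were 1879 with array weights, 994 with only these groups fitted, 93 with young replicates 2 and 3 averaged and 88 to 111 with 1 array left out. Those of mutator against mid-aged wild-type HSC (0) reached 221 without mid-aged wild-type replicate 2 and 1 with BioB as a block or without the 2 arrays of high BioB. Those of the difference of effects (69) were 483 with array weights, 157 and 163 with BioB as a block and without those 2 arrays, 38 with young replicates averaged and 23 to 147 with 1 array left out. Those of mid-aged wild-type against young HSC (3258) were 2031 with young replicates averaged and 2038 at the lowest with 1 array left out, and the share of higher calls was 26.6%, against 41.2% with quantile normalization and 20.1% with median centring, which moved the median of all genes to -0.125. Those between CLP kinds (384) were 105 with array weights, 0 with only these groups fitted (limma, 4 arrays) and up to 748 with 1 array left out, and those of Ly6D- CLP against young HSC (3503) were 2331 without Ly6D- CLP replicate 2. The cause of these shifts was not tested.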

Other observations

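The choice of probe set decided the sign of some members in other comparisons too. In Ly6D+ CLP against young HSC, 3 members (Lss, Scd1 and Srebf2) had a probe set above and another below all young values, and in Ly6D- CLP against young HSC 2 did (Acly and Scd2). For Scd2 the probe set used here had -0.34 in Ly6D- CLP, while the others had -0.83 and 0.74. For Acly in Ly6D+ CLP, the probe set used had -0.26, at 2360 ± 434 in Ly6D+ CLP and 2810 ± 308 in young HSC, while another had 1.21, at 911 ± 65.3 in Ly6D+ CLP and 384 ± 15.4 in young HSC (SD, n = 2 and 3). Between old and young HSC, 11 of 19 members with several probe sets had opposite signs among them, but none had probe sets separated both ways. These are values of single probe sets, with no test.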
